A study of Homo sapiens with 12 samples.

Results

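The difference between 2 human intrahepatic cholangiocarcinoma cell lines, HCCC9810 and RBE, in their transcriptional response to anlotinib was measured over all 12 RNA-seq libraries of the study. Intrahepatic cholangiocarcinoma is a cancer of the bile duct epithelium inside the liver, and anlotinib is a small molecule that blocks several receptor tyrosine kinases, among them receptors for VEGF, FGF and PDGF. Each line was grown in RPMI medium with 10% fetal bovine serum and sampled as 3 control libraries and 3 libraries exposed to 5 µM anlotinib for 24 h, which the design text calls biological replicates. The drug was dissolved in DMSO. The sources used here do not say whether control cultures got it too. The members of the comparison are therefore 12 of 12 libraries in 4 groups, and the quantity described is the log2 fold change in RBE minus the log2 fold change in HCCC9810, called the difference below. Each line is 1 cell line, so the spread between libraries covers repeats of that line only.

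Libraries were assigned by the line and the word control or treat in the headers of the count table. All 12 numbers in those headers belong to sample titles of the other treatment, so libraries are named here by their header numbers: 1 to 3 are RBE control, 4 to 6 RBE with anlotinib, 7 to 9 HCCC9810 control and 10 to 12 HCCC9810 with anlotinib. Every sign below rests on the header words and would turn if the numbers in the titles were followed. Counts assigned to genes came to 16240478 to 22567927 per library in HCCC9810 control, 15215193 to 17722970 in HCCC9810 with anlotinib, 17779598 to 31956474 in RBE control and 18227987 to 40963529 in RBE with anlotinib. RBE anlotinib library 6 and HCCC9810 control library 7 stood apart from their own groups, with scores of 23.8 and 21.5 on a within-group axis on which the other libraries lay between -15.1 and 15.2. The gene loadings of that axis, which held 59.7% of the within-group variance over 9892 genes, followed GC content with a Spearman rho of 0.761 across genes. The main counts below are therefore also given without libraries 6 and 7 and with a correction for GC content and length, and those of single lists where they moved by over 1.5 times. All 10 cholangiocyte markers checked, KRT19 and EPCAM among them, were present at 1 CPM (counts per 1000000 assigned reads) or more, against 7 of 10 fibroblast, 6 of 10 hepatocyte, 3 of 10 endothelial and 3 of 10 leukocyte markers. The summed level of the cholangiocyte markers was 7020 to 10400 CPM in HCCC9810 control, 4410 to 4810 in HCCC9810 with anlotinib, 2810 to 3310 in RBE control and 3130 to 3740 in RBE with anlotinib. Fewer cells of a state and less RNA per cell cannot be told apart in bulk libraries.

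Cells that enter mitosis assemble a spindle, attach chromosomes through kinetochores and then destroy cyclin B and securin through the anaphase promoting complex, and the genes for this machinery are transcribed together late in the cell cycle. NRF2 is a transcription factor that electrophiles and oxidants release from its inhibitor KEAP1, after which it raises genes for glutathione, thioredoxin and haem metabolism. Hypoxia-inducible factors raise glycolytic enzymes and angiogenic ligands, and TGF-beta signalling raises matrix proteins. Bile duct cells carry the simple keratins KRT7, KRT8, KRT18 and KRT19.

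With anlotinib, the mitotic genes KIF20A, PLK1, AURKA and CCNB1 were raised in HCCC9810 and lowered in RBE. The keratin KRT4, the matrix protein FBN1 and the drug-efflux pump ABCB1 did the reverse. HMOX1 and TXNRD1, targets of NRF2, rose in RBE and were at control level within their error in HCCC9810. Of 18035 genes tested with edgeR's quasi-likelihood test (Benjamini-Hochberg adjusted p below 0.05), 2990 genes (16.6%) had a difference between the lines. The fold change was higher in RBE for 1608 of them (8.92%) and lower in RBE for 1382 (7.66%). Within the lines, 4303 genes (23.9%) were called in HCCC9810, 1997 up (11.1%) and 2306 down (12.8%), and 3189 (17.7%) in RBE, 1689 up (9.37%) and 1500 down (8.32%). Across all tested genes the fold changes of the lines were close to unrelated, with a Pearson r of 0.097 and a Spearman rho of 0.0283, a description in which genes are not independent replicates.

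In 352 genes (1.95%) the difference and the response in each line were all called and the responses had opposite signs. Of these, 162 (0.898%) rose in RBE and fell in HCCC9810, with median log2 fold changes of 0.79 and -0.81. The other 190 (1.05%) rose in HCCC9810 and fell in RBE, with medians of 0.62 and -0.65. A further 1240 genes (6.88%) responded in HCCC9810 only, 536 up (2.97%) and 704 down (3.9%). Responses in RBE only were found for 765 genes (4.24%), 342 up (1.9%) and 423 down (2.35%). "Only" here means that the difference and the responding line were called, and that the other line was not called and changed by less than 1.5-fold. For 740 of the 1240 HCCC9810-only genes and 487 of the 765 RBE-only genes the 95% interval of the other line lay inside 1.5-fold. A difference in size with the same direction was called for 81 genes (0.449%), 42 with the larger response in RBE (0.233%) and 39 with the larger in HCCC9810 (0.216%), and 552 (3.06%) fell in none of these classes. Responses called in both lines in the same direction, whatever the difference, numbered 795 (4.41%). Treated and control CPM ranges were apart in both lines for 156 of the 162 and 180 of the 190 opposite genes, against 15.0% of all tested genes. The calls that define these classes come from the same libraries, so the lack of overlap largely follows from the selection. Median GC content was 47.2% in the 162, 51.8% in the 190 and 48.6% over all tested genes.

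The number of calls depended on the libraries. Without libraries 6 and 7, 6413 genes had a difference and 1154 were opposite, and with the GC and length correction the counts were 4565 and 633. With 1 library left out, the count of differences ran from 1473 (without library 5) to 4865 (without library 6), and it was 1565, 1784, 1641, 1727 and 1681 without library 4, 1, 3, 8 and 9. The counts of opposite genes without libraries 1, 3, 4, 5, 6, 8, 9 and 12 were 193, 213, 189, 184, 614, 214, 205 and 224. Genes responding in HCCC9810 only numbered 717, 699, 661, 640, 1881, 597, 563, 810 and 710 without libraries 1, 3, 4, 5, 6, 8, 9, 10 and 12. Genes responding in RBE only numbered 413, 389, 372, 346, 1195, 493 and 509 without libraries 1, 3, 4, 5, 6, 8 and 9. All 352 genes had opposite signs in every alternative in which they were measured. They were selected for called opposite signs in the same libraries, so this was nearly fixed by the selection. The share again called opposite ran from 44.9% (limma on log2(RPKM + 0.1), no filter) to 97.4% (stricter low-count filter). The share of called differences that were higher in RBE was 53.8%, and it was 42.9% with the GC and length correction and 65.7% when libraries were scaled by their totals, which moved the median difference of all genes from 0.09 to 0.22. Across genes the difference was related to GC content, with a Spearman rho of -0.258 that was -0.0104 after the correction, and the part of this relation in single results was not tested. In counts simulated at this depth, without the shared axis that followed GC content, differences of 2-fold were recovered in 44% and of 4-fold in 92% of cases. Smaller differences can therefore be missed, and the recovery in the real libraries was not measured.

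**Figure D1:**
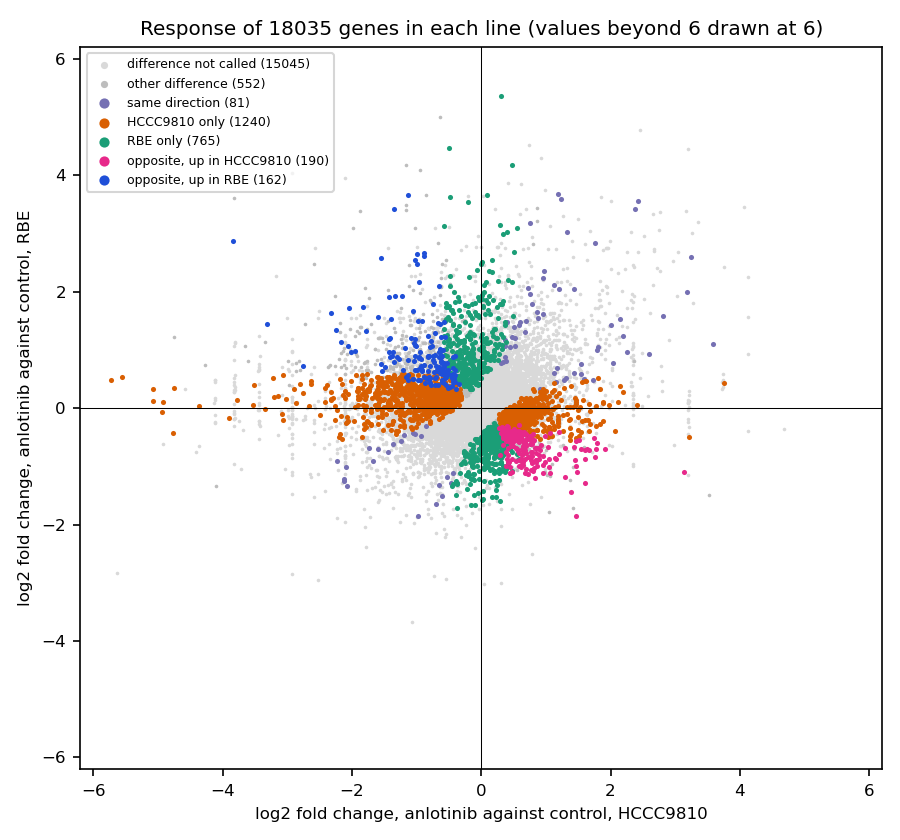
Log2 fold change with anlotinib in HCCC9810 (horizontal axis) against RBE (vertical axis), 1 point per tested gene, coloured by class. The 352 opposite genes lie in the upper left (162) and lower right (190) quadrants, and over the whole cloud Pearson r is 0.097.

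KRT4 (chromosome 12, 52806549 to 52814551, GRCh38 positions from GENCODE 29 as for all genes below) encodes a type II keratin of wet stratified epithelia and had the largest difference among the named opposite genes. Its level was 227, 143 and 137 CPM in HCCC9810 control libraries and 13.8, 9.67 and 12 with anlotinib, and 0.215, 0.27 and 0.153 CPM in RBE control and 1.63, 1.47 and 1.41 with anlotinib. The ranges were apart in both lines, at levels far lower in RBE, where 16 control counts and 146 anlotinib counts lie behind the values. Genes named by their response had to have such ranges in each line where they were called. For those genes the lack of overlap describes the selection. The log2 fold change was -3.84 ± 0.20 (± SE from here on) in HCCC9810 and 2.86 ± 0.37 in RBE, a difference of 6.70 ± 0.39 (adjusted p = 2.6e-07).

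GCNT4 (chromosome 5, 75025346 to 75030899) encodes a branching enzyme of O-glycans. It stood at 5.78, 7.06 and 5.1 CPM in HCCC9810 control and 1.34, 1.55 and 2.13 with anlotinib. In RBE it stood at 3.76, 4.1 and 3.27 CPM in control and 13.8, 13.4 and 9.6 with anlotinib. The groups were again apart in both lines, in opposite orders, with a difference of 3.57 ± 0.30 (adjusted p = 9.57e-06). SLAMF7 (chromosome 1, 160739057 to 160754821), a receptor best known from lymphocytes, was at 33.3, 29 and 32.3 CPM in HCCC9810 control and 15.7, 13.1 and 11.7 with anlotinib, and at 0.968, 1.24 and 0.978 and 3.42, 3.83 and 4.83 CPM in RBE. Leukocyte markers as a list were at 29.5 to 42.6 CPM in HCCC9810 control, 52.5 to 91.2 with anlotinib, 8.07 to 11.3 in RBE control and 12.6 to 15.7 with anlotinib, and of the 6 tested 0 were called in the difference by edgeR or DESeq2 (1 in each direction at an unadjusted p below 0.05). EDN2 (chromosome 1, 41478775 to 41484673), the vasoconstrictor peptide endothelin 2, went from 21.2, 17.6 and 18.5 to 5.45, 2.21 and 5.19 CPM in HCCC9810 and from 1.58, 1.02 and 1.31 to 3.24, 2.39 and 3.25 CPM in RBE. SLAMF7 and EDN2 had groups that did not overlap in either line, as required for naming. Their differences were 3.15 ± 0.25 and 3.30 ± 0.38 (adjusted p = 7.88e-06 and 9.29e-05).

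FBN1 (chromosome 15, 48408306 to 48645849), the structural protein of extracellular microfibrils, was at 132, 112 and 114 CPM in HCCC9810 control and 52.2, 46.4 and 70.6 with anlotinib. In RBE it was at 3.94, 4.37 and 3.18 CPM in control and 9.03, 8.69 and 8.68 with anlotinib. The fall in HCCC9810 (-1.08 ± 0.15) and the rise in RBE (1.21 ± 0.17) were of like size on the log2 scale, with a difference of 2.29 ± 0.22 (adjusted p = 2.59e-05). The 8 named genes of this direction also included FAM198B, a Golgi kinase-like gene (difference 3.16 ± 0.37, 13.2% of its exons shared with another gene), the neuronal calcium sensor NCALD (2.61 ± 0.31) and the ciliary gene CFAP65 (4.77 ± 0.93). CFAP65 rests on 1 control and 18 anlotinib counts in RBE, and its RBE call ended without library 3 (adjusted p = 0.0747).

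The 8 named genes of the other direction were PIF1, KIF20A, CA9, CENPA, GTSE1, CDCA8, PLK1 and KIF4A, and all but CA9 act in mitosis or in genome maintenance. PIF1 (chromosome 15, 64815632 to 64825668), a DNA helicase, was at 2.62, 4.56 and 4.16 CPM in HCCC9810 control and 12, 7.34 and 12.4 with anlotinib, against 25.3, 27 and 26.7 CPM in RBE control and 7.52, 7.53 and 6.61 with anlotinib. Its difference of -3.32 ± 0.29 (adjusted p = 1.37e-05) was the most negative of the 8 after that of CA9. CA9, the hypoxia-regulated carbonic anhydrase of the cell surface, rose in HCCC9810 from 2.55, 3.02 and 3 to 19.2, 31.6 and 24.8 CPM, and in RBE it stood at 0.645, 0.701 and 0.886 CPM in control and 0.524, 0.306 and 0.163 with anlotinib. The difference was -4.23 ± 0.42 (adjusted p = 2.92e-05), while the fall in RBE ended without library 1, 2, 3, 5, 6, 7, 8, 9 or 12 (adjusted p = 0.0513 to 0.205), and 38.5% of its exons overlap another gene.

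The mitotic genes were read from 5 lists with 109 tested members. Of these, 69 had a lower fold change in RBE and 0 a higher one by edgeR (0 also by DESeq2 and at an unadjusted p below 0.05), with a median difference of -1.1 against 0.09 over all genes. In HCCC9810, 41 rose and 13 fell (median log2 fold change 0.23), and in RBE 81 fell and 0 rose (median -0.9, again 0 by DESeq2 and unadjusted). In 37 of the 109 the responses were opposite, all in the same sense, 22 fell in RBE only, 4 responded in HCCC9810 only and 4 went the same way in both lines by different amounts. The opposite count was 49 with the GC and length correction, 38 without libraries 6 and 7, and 31 to 38 with any 1 library left out.

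**Figure D2:**
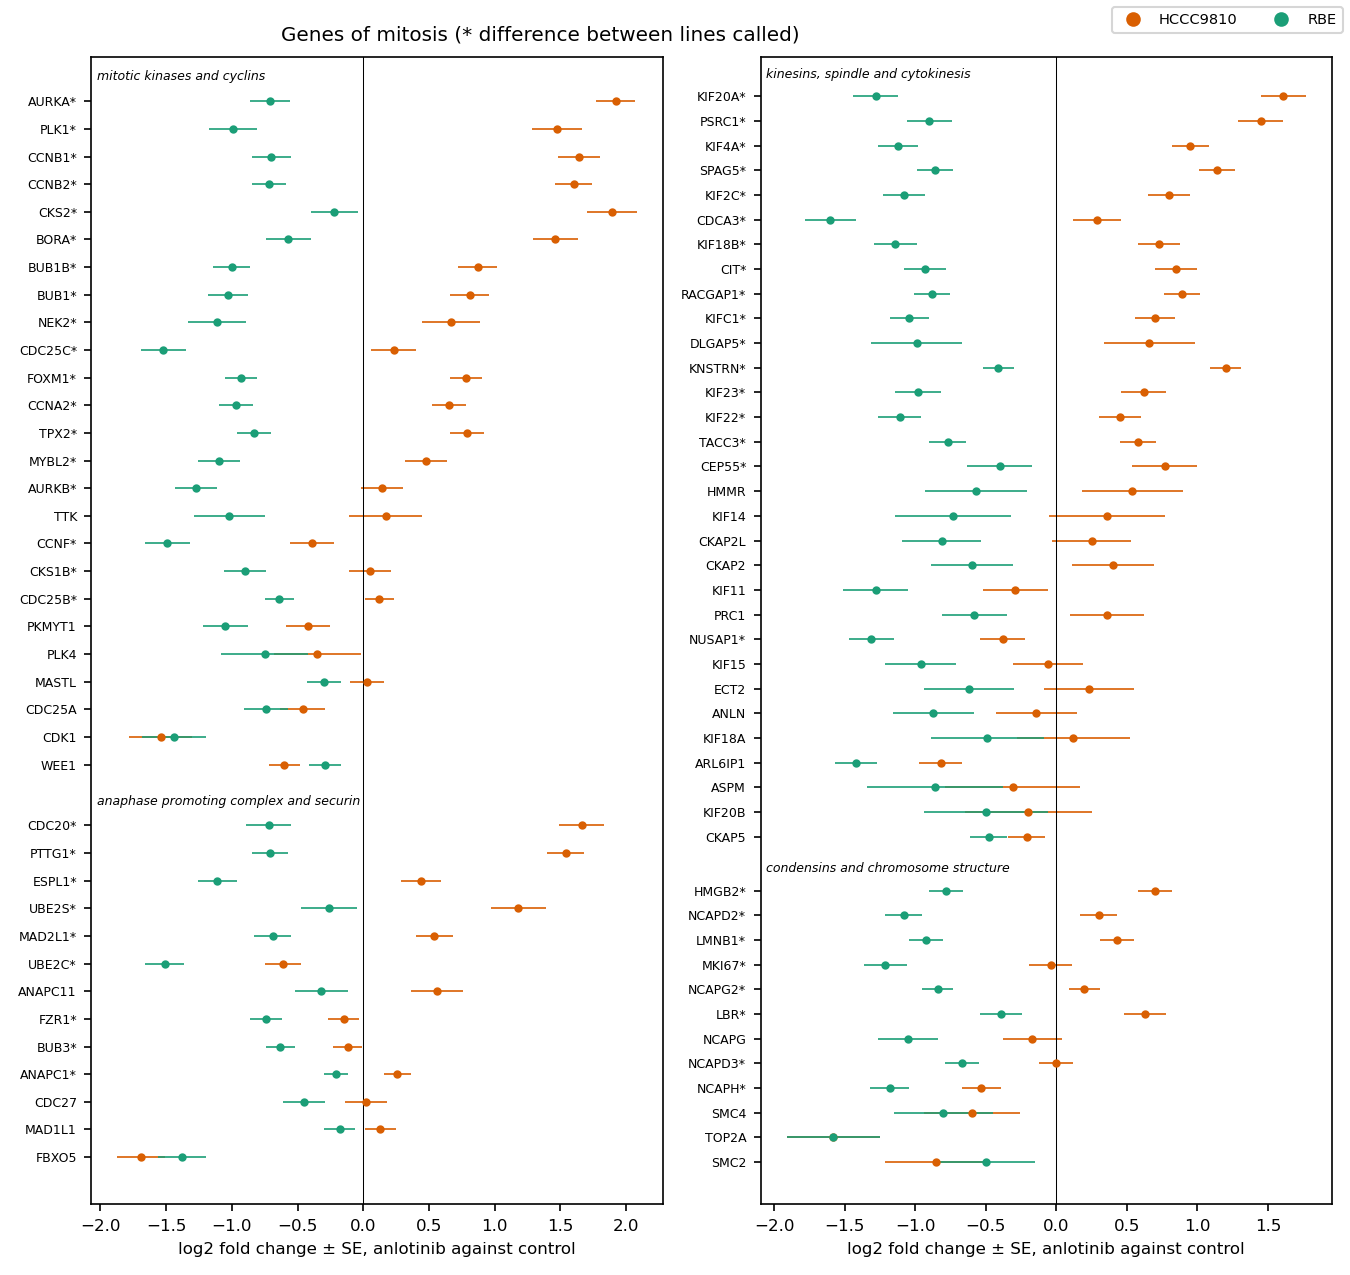
Log2 fold change with anlotinib in each line (point) with its standard error (bar) for the members of 4 mitosis lists, an asterisk marking genes whose difference was called. In RBE the called members lie below 0, and in HCCC9810 most of the starred kinases, cyclins and kinesins lie above 0.

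Among the mitotic kinases and cyclins, 18 of 25 tested genes (72.0%) were lower in the difference and 12 were opposite. AURKA, the kinase that matures centrosomes, was at 72.4, 99.7 and 96.7 CPM in HCCC9810 control and 319, 292 and 405 with anlotinib. In RBE it was at 127, 123 and 141 CPM in control and 72.8, 76.7 and 90.4 with anlotinib. Treated and control libraries were apart in each line, in opposite orders, with log2 fold changes of 1.92 ± 0.15 and -0.71 ± 0.15 and a difference of -2.62 ± 0.21 (adjusted p = 7.88e-06). CCNB1, the cyclin that drives entry into mitosis, went from 81.1, 114 and 108 to 299, 268 and 380 CPM in HCCC9810 and from 268, 266 and 290 to 156, 150 and 201 CPM in RBE. PLK1 (chromosome 16, 23677656 to 23690367, 12.5% of its exons shared), a kinase of centrosome and kinetochore, went from 64.4, 101 and 96.5 to 231, 196 and 298 CPM in HCCC9810 and from 172, 160 and 190 to 79.4, 79.1 and 105 CPM in RBE. No treated library of either gene overlapped a control library of its line, and the differences were -2.34 ± 0.22 and -2.46 ± 0.26 (adjusted p = 2.39e-05 and 6.62e-05). CCNB2, the second B-type cyclin, followed with 1.60 ± 0.14 in HCCC9810 and -0.72 ± 0.13 in RBE. CKS2, a small subunit of cyclin-dependent kinases, rose in HCCC9810 only (1.89 ± 0.19, against -0.22 ± 0.18 in RBE, difference -2.11 ± 0.26, adjusted p = 0.00017).

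Of the anaphase promoting complex and securin list, 9 of 13 were lower in the difference (69.2%) and 4 were opposite (2 without library 5). CDC20, the activator of that complex, went from 127, 145 and 135 to 384, 357 and 543 CPM in HCCC9810 and from 282, 271 and 324 to 155, 153 and 225 CPM in RBE (difference -2.38 ± 0.24, adjusted p = 3.58e-05). Its fall in RBE ended without library 3, 4 or 5 (adjusted p = 0.0503 to 0.0559). PTTG1, the securin that holds separase in check until anaphase, changed by 1.54 ± 0.14 and -0.71 ± 0.14 (difference -2.25 ± 0.20, adjusted p = 1.37e-05).

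Kinesins and spindle proteins had 17 of 31 members lower in the difference (54.8%, and 28 with the GC and length correction) and 13 opposite, the highest number of opposite members of any list. KIF20A (chromosome 5, 138178719 to 138187715), a motor needed for cytokinesis, was at 111, 166 and 164 CPM in HCCC9810 control and 450, 354 and 536 with anlotinib. It was at 198, 202 and 202 CPM in RBE control and 79.2, 76.9 and 91.2 with anlotinib. Both shifts cleared the spread of the libraries, as required for naming, and the difference was -2.89 ± 0.23 (adjusted p = 7.88e-06). KIF4A (chromosome X, 70290090 to 70420832), a chromosome-bound motor, changed by 0.95 ± 0.13 and -1.12 ± 0.14. PSRC1 and SPAG5, which bind spindle microtubules, changed by 1.45 ± 0.16 and 1.14 ± 0.13 in HCCC9810 and by -0.90 ± 0.16 and -0.86 ± 0.13 in RBE (15.9% of the exons of SPAG5 are shared).

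Kinetochore and passenger-complex genes fell in RBE in 23 of 28 cases and were lower in the difference in 17 (60.7%), with a median log2 fold change in HCCC9810 of -0.05. As many of them rose as fell in HCCC9810 (6 each). CENPA (chromosome 2, 26764289 to 26801067), the histone H3 variant that marks centromeres, went from 14.8, 27.1 and 24 to 68.1, 53 and 63.1 CPM in HCCC9810 and from 29.2, 24 and 30.5 to 13.3, 13.3 and 12.7 CPM in RBE. CDCA8 (chromosome 1, 37692418 to 37709719) and BIRC5, both subunits of the chromosomal passenger complex, changed by 1.05 ± 0.15 and 0.95 ± 0.13 in HCCC9810 and by -1.02 ± 0.15 and -0.97 ± 0.13 in RBE. SPC24, a subunit of the NDC80 complex that grips microtubules, fell in RBE only: it was at 61.8, 58.2 and 56.3 CPM in HCCC9810 control and 61, 40.3 and 63.9 with anlotinib, and at 60.2, 54.4 and 65.2 CPM in RBE control and 19.6, 16.6 and 20.3 with anlotinib. Its treated and control libraries overlapped in HCCC9810 and were apart in RBE (difference -1.58 ± 0.22, adjusted p = 0.000334). Condensins, cohesins and chromatin proteins of dividing cells gave 8 of 12 lower in the difference (66.7%). In HCCC9810, 3 of them rose and 2 fell (median -0.02), and in RBE 9 fell (median -0.88). HMGB2, which bends DNA, was among those that rose in HCCC9810, at 0.70 ± 0.12, with -0.78 ± 0.12 in RBE. MKI67, which coats mitotic chromosomes and is the usual mark of cycling cells, was at 280, 410 and 382 CPM in HCCC9810 control and 297, 341 and 407 with anlotinib, overlapping, and at 606, 610 and 547 and 260, 278 and 225 CPM in RBE (difference -1.17 ± 0.21, adjusted p = 0.00231).

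**Figure D3:**
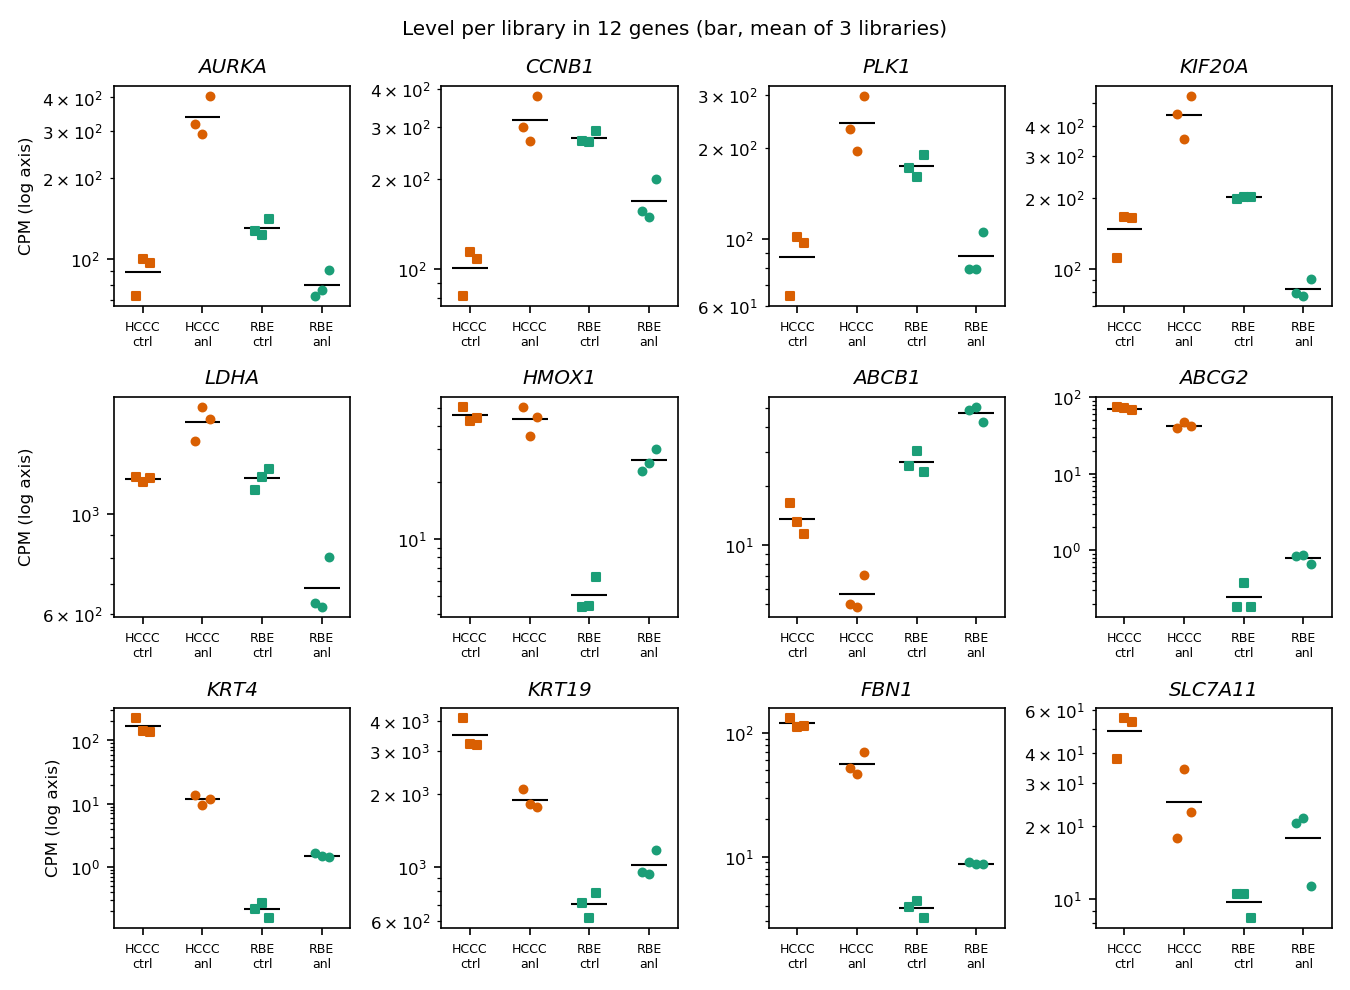
CPM in each library on a log axis for 12 genes, squares for control, circles for anlotinib and a bar for the group mean. Treated and control points of AURKA, CCNB1, PLK1 and KIF20A change order between the lines, as do those of ABCB1, ABCG2, KRT4, KRT19 and FBN1 in the reverse sense.

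Not every gene of the late cell cycle took part. CDK1, the kinase partner of cyclin B, and TOP2A, the topoisomerase that untangles chromosomes, were chosen for mention after their values were seen. CDK1 fell in both lines (-1.54 ± 0.24 in HCCC9810 and -1.44 ± 0.24 in RBE, difference 0.10 ± 0.33, adjusted p = 0.87), from 96.7 to 33.4 CPM and from 108 to 39.4 CPM on average over 3 libraries each. TOP2A fell by the same measure in both (-1.58 ± 0.33 and -1.58 ± 0.33, difference 0.01 ± 0.46, adjusted p = 1). CDK1 and cyclin B1, which form 1 complex, therefore moved together in RBE and apart in HCCC9810 at the level of RNA.

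Promoters of the mitotic genes commonly hold a cell cycle genes homology region (CHR, letters TTTGAA), which the DREAM and MYB-MuvB complexes bind, with CCAAT boxes (letters CCAAT) upstream that NF-Y binds. Promoters were taken from RefSeq (build GRCh38.p14, 250 bases before to 50 after the start) for 12180 of the 18035 tested genes, and each motif was searched on both strands. A single start was used per gene, and its other starts were not searched. The CHR letters stood in 9.86% of all promoters and in 42 of 153 (27.5%) of the opposite genes that rose in HCCC9810, and in 26 of 122 (21.3%) of those outside the mitosis lists. Opposite genes that rose in RBE held them in 14 of 104 (13.5%), HCCC9810-only genes in 10.7% and RBE-only genes in 11.4%. Within the mitosis lists they stood in 16 of 31 opposite members (51.6%), in 4 of 10 that fell in both lines (40.0%) and in 19 of 27 others that fell in RBE (70.4%). CCAAT boxes stood in 36.1% of all promoters, 58.2% of the opposite genes that rose in HCCC9810 and 22.1% of those that rose in RBE. The searches for AP-1 (TGANTCA), CRE (TGACGTCA) and E2F (TTTCCCGC or TTTGGCGC) found 5.07%, 3.06% and 3.47% of all promoters. The shares were 8.65%, 4.81% and 1.92% of the opposite genes that rose in RBE and 4.58%, 2.61% and 4.58% of those that rose in HCCC9810.
The 6 promoters below are printed because they hold the motifs of 5 opposite genes and of TOP2A, which fell in both lines. Capitals mark the CHR and CCAAT letters, and positions count from the RefSeq start. The CHR letters begin at -29 in PLK1, -29 in CCNB2, -178 and -65 in CDC20, -18 in CENPA, -23 in CDCA8, and -194 and -151 in TOP2A.
PLK1, chr16:23678639-23678938, + strand: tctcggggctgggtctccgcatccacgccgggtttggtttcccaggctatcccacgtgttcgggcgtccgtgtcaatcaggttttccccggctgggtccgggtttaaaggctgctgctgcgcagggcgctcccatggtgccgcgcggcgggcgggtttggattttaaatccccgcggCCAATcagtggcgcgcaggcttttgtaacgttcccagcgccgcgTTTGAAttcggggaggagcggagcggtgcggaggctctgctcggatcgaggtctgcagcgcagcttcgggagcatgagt
CCNB2, chr15:59104896-59105195, + strand: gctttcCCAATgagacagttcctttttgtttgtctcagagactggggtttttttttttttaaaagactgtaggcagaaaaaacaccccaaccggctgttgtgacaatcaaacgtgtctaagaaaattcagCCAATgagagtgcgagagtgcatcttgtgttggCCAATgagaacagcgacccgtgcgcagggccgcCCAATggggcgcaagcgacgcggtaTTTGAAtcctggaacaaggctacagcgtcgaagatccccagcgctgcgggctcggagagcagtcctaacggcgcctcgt
CDC20, chr1:43358731-43359030, + strand: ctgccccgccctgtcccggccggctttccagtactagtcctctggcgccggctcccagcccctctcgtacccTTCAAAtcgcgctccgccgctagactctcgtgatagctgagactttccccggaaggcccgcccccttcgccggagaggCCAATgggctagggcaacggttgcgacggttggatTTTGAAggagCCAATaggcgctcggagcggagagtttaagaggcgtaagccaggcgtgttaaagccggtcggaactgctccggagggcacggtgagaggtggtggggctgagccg
CENPA, chr2:26785806-26786105, + strand: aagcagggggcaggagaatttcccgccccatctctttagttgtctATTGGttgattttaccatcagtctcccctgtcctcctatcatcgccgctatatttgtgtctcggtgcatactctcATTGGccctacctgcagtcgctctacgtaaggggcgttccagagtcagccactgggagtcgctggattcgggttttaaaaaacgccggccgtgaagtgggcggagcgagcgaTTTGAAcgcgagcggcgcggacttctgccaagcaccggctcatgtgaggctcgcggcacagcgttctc
CDCA8, chr1:37692266-37692565, + strand: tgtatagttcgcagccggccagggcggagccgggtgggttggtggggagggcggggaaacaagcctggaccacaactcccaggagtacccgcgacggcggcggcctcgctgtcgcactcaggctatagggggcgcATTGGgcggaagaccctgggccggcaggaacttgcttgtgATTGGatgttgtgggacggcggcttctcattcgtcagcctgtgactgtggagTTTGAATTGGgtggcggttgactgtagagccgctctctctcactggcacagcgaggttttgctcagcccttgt
TOP2A, chr17:40417847-40418146, - strand: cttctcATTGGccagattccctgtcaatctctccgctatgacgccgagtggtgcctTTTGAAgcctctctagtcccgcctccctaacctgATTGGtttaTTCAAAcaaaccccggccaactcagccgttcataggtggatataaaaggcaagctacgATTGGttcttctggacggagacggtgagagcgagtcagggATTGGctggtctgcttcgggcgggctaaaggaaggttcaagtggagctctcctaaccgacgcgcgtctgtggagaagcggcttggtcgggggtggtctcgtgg
The PLK1, CCNB2, CENPA and CDCA8 promoters carry the CHR letters within 30 bases of the start, whereas in CDC20 and TOP2A they lie further upstream. A match of letters is not a measured binding site.

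DNA replication genes differed less between the lines than mitotic genes. Over 3 lists for origin licensing, DNA polymerases with nucleotide supply, and E2F factors with G1/S cyclins, 63 genes were tested, of which 15 had a lower and 4 a higher fold change in RBE. In RBE 57 of the 63 fell (median -0.77), in HCCC9810 30 fell and 1 rose (median -0.44), and 0 were opposite. Without libraries 6 and 7, 28 were lower, 5 higher and 2 opposite, and with the GC and length correction 21, 4 and 1. TK1, the thymidine kinase of S phase, was at 490, 421 and 413 CPM in HCCC9810 control and 499, 402 and 612 with anlotinib, overlapping, and at 226, 219 and 244 CPM in RBE control and 97.7, 92.2 and 127 with anlotinib, apart. TK1 thus fell in RBE only (difference -1.32 ± 0.21, adjusted p = 0.00119), as did RRM1, the large subunit of ribonucleotide reductase (-0.94 ± 0.11). The origin list had 8 of 25 called (32.0%) and the polymerase list 8 of 26 (30.8%). The first count was 4 or 5 without library 1, 3, 4, 5, 8, 9, 10 or 12. The second was 5 without library 1, 3, 4, 5, 8, 9 or 12, and 14 without library 11 and 16 without libraries 6 and 7.

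CDK6, the partner of D-type cyclins, fell in HCCC9810 only, from 228, 304 and 286 to 75.4, 134 and 96.7 CPM, and was at 135, 132 and 110 CPM in RBE control and 143, 144 and 84.9 with anlotinib (difference 1.40 ± 0.32, adjusted p = 0.0121). CDKN2C, an inhibitor of CDK4 and CDK6, fell in RBE only (-1.58 ± 0.18, against 0.01 ± 0.17 in HCCC9810, difference -1.59 ± 0.24, adjusted p = 0.000732). CDKN2D, a related inhibitor, rose in HCCC9810 (1.13 ± 0.19), with -0.31 ± 0.21 in RBE. CDKN1A, the p21 inhibitor of cyclin-dependent kinases, rose in both lines (0.44 ± 0.13 and 1.04 ± 0.14), in HCCC9810 not without library 8, 9, 10 or 11 (adjusted p = 0.0648 to 0.136). Its difference of 0.59 ± 0.19 (adjusted p = 0.045) was lost without any 1 library except library 3 (adjusted p = 0.0609 to 0.139). The list of D-type cyclins and CDK inhibitors had 5 of 10 members called (50.0%), and 3 without library 1, 2, 4, 5, 7, 8, 10 or 12.

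Transcripts of replication-dependent histone genes, which are normally tied to S phase, rose in RBE in 10 of 15 tested cases and in HCCC9810 in 8, with 4 higher and 1 lower in the difference (33.3%, 3 in all without library 3 and 8 with the GC and length correction). The linker histone HIST1H1C rose in RBE only (2.19 ± 0.32, against 0.26 ± 0.27), and HIST2H2BE rose in both lines, more in RBE (difference 1.21 ± 0.22). Histone genes are near-identical and the way shared reads were counted is not given, so single histone values are uncertain. Of the BCL2 family 5 of 16 were called (31.2%). BMF, a killer protein tethered to the cytoskeleton, went from 11.8, 10.3 and 13 to 3.96, 2.75 and 2.7 CPM in HCCC9810 and from 29.2, 29.5 and 31.1 to 34.2, 38.3 and 37.1 CPM in RBE. It fell in HCCC9810 and was slightly higher in all RBE anlotinib libraries than in RBE control (adjusted p in RBE = 0.149, difference 2.19 ± 0.21, adjusted p = 2.35e-05). HRK, another killer protein, rose in RBE only (2.11 ± 0.33, against 0.04 ± 0.26). The BCL2 count was 2 or 3 without library 1, 3, 4, 5, 8, 9 or 12, 8 without library 6 and 9 without libraries 6 and 7.

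Glycolytic enzymes rose in HCCC9810 in 11 of 23 tested cases (median 0.38) and fell in RBE in 7 (median -0.19), with 9 lower and 1 higher in the difference (43.5%). Of these, 4 were opposite, 7 with the GC and length correction and 8 without libraries 6 and 7, but 1 without library 8, 9 or 12 and 2 without library 11. LDHA, which reduces pyruvate to lactate, was at 1210, 1180 and 1200 CPM in HCCC9810 control and 1450, 1730 and 1630 with anlotinib. In RBE it was at 1130, 1210 and 1260 CPM in control and 633, 620 and 802 with anlotinib. The groups did not overlap in either line (difference -1.24 ± 0.17, adjusted p = 0.000323), although the rise in HCCC9810 ended without library 8, 9, 11 or 12 (adjusted p = 0.0604 to 0.0791). PGAM1, the phosphoglycerate mutase, went from 308, 278 and 269 to 432, 472 and 443 CPM in HCCC9810 and from 493, 436 and 559 to 299, 294 and 392 CPM in RBE, also without overlap (difference -1.25 ± 0.18, adjusted p = 0.000496). TPI1, triose phosphate isomerase, changed by 0.49 ± 0.13 and -0.66 ± 0.13, its HCCC9810 call ending without library 8, 9 or 12 (adjusted p = 0.0606 to 0.073). PGK1, phosphoglycerate kinase, rose in HCCC9810 (0.92 ± 0.13), with -0.15 ± 0.13 in RBE.

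The hypoxia list gave 9 of 25 lower and 2 higher in the difference (44.0%), with 6 responding in HCCC9810 only. BNIP3, a mitophagy receptor, was at 25.4, 25.1 and 27.6 CPM in HCCC9810 control and 61.3, 105 and 59.8 with anlotinib, and at 62.5, 59.6 and 62.1 CPM in RBE control and 62.2, 61.5 and 62.2 with anlotinib. RBE thus showed no shift beyond the spread of its libraries (difference -1.52 ± 0.24, adjusted p = 0.000903). P4HA1, a collagen prolyl hydroxylase, also rose in HCCC9810 only (1.02 ± 0.16, against 0.01 ± 0.16), and NDRG1 rose in both lines, more in HCCC9810 (2.59 ± 0.22, against 0.92 ± 0.21). The hypoxia count was 7 without library 1, 3, 4, 5, 8 or 9.

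Subunits of the proteasome, which degrades ubiquitin-tagged proteins, were lower in the difference in 17 of 31 cases (54.8%), with 11 falling in RBE only and 1 opposite. The lower count was 21 with the GC and length correction and 23 without libraries 6 and 7, and the opposite count 6 and 14. PSMD2, a base subunit of the regulatory particle, was at 1040, 971 and 968 CPM in HCCC9810 control and 1180, 1150 and 1400 with anlotinib, and at 617, 594 and 675 CPM in RBE control and 326, 333 and 439 with anlotinib. Ranges were apart in both lines, but the call was in RBE only (difference -1.11 ± 0.18, adjusted p = 0.00127). PSMC3, an ATPase of the same particle, also fell in RBE only (-0.76 ± 0.13, against 0.25 ± 0.13). The count was 6 to 9 without library 1, 3, 4, 5, 8, 9 or 12. Aminoacyl-tRNA synthetases were lower in the difference in 6 of 15 cases (40.0%), all of them rising in HCCC9810 only, but 0 to 3 were called without library 1, 3, 4, 5, 8, 9, 10 or 11. Of the ATF4 target list, 5 were lower and 2 higher (26.9%, and 4 in all without library 1). CBS, which makes cystathionine, rose in HCCC9810 only (1.38 ± 0.18, against 0.02 ± 0.15), while TRIB3, a pseudokinase of the stress response, rose in both lines and more in RBE (1.12 ± 0.13 and 2.12 ± 0.14).

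NRF2 targets rose in RBE in 16 of 26 tested cases and fell in 1 (median 0.59), while in HCCC9810 5 rose and 4 fell (median -0.05). The difference was higher in RBE for 13 and lower for 1 (53.8%), and 8 responded in RBE only. The difference was higher for 12 and lower for 1 with the GC and length correction, and higher for 13 and lower for 4 without libraries 6 and 7. The 3 opposite members became 1 without library 1, 2, 4, 5, 9 or 12 and 0 without library 8. HMOX1, the enzyme that opens haem, was at 50.3, 42.4 and 44.1 CPM in HCCC9810 control and 50.2, 35.5 and 44.6 with anlotinib. It was at 4.34, 4.42 and 6.29 CPM in RBE control and 23.1, 25.3 and 30.1 with anlotinib. The treated libraries of RBE remained below all HCCC9810 libraries, so the response and not the level was larger in RBE (2.37 ± 0.18, against -0.07 ± 0.16, difference 2.44 ± 0.24, adjusted p = 2.59e-05). TXNRD1, thioredoxin reductase, began at like levels in both lines, 634, 534 and 502 CPM in HCCC9810 control and 624, 616 and 630 CPM in RBE control. With anlotinib it was at 572, 565 and 540 CPM in HCCC9810 and 1470, 1560 and 1490 CPM in RBE, a rise in RBE only (difference 1.27 ± 0.15, adjusted p = 9.52e-05).

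OSGIN1, an oxidative stress response gene, also rose in RBE only (1.61 ± 0.14, against 0.14 ± 0.13, 13.9% of its exons shared). AKR1C2 and AKR1C1, ketosteroid reductases whose near-identical sequences leave the split of their reads uncertain, changed by 1.76 ± 0.19 and 1.69 ± 0.23 in RBE and by -0.20 ± 0.17 and -0.35 ± 0.22 in HCCC9810. SLC7A11, the cystine importer, was at 37.8, 55.4 and 53.5 CPM in HCCC9810 control and 17.8, 34.4 and 22.8 with anlotinib, and at 10.5, 10.5 and 8.37 CPM in RBE control and 20.6, 21.6 and 11.4 with anlotinib. Its difference was 1.85 ± 0.38 (adjusted p = 0.00737), while its fall in HCCC9810 ended without library 8, 9, 10 or 12 (adjusted p = 0.0633 to 0.077) and its rise in RBE without library 1, 2, 3, 4, 5 or 12 (adjusted p = 0.0516 to 0.148). NQO1, the quinone reductase, was not called in either line (-0.03 ± 0.12 and 0.10 ± 0.12) and is named after its values were seen (17.7% of its exons shared).

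The antioxidant response element, to which NRF2 binds with a small MAF protein, was searched as TGACNNNGC, a choice made after the values were seen. It stood in 15.0% of all promoters, in 6 of 18 promoters of the NRF2 list (33.3%) and in 3 of 10 of those higher in RBE (30.0%). The promoter of TXNRD1 is shown because it carries 2 matches, in capitals, that begin at -99 and -8.
TXNRD1, chr12:104215529-104215828, + strand: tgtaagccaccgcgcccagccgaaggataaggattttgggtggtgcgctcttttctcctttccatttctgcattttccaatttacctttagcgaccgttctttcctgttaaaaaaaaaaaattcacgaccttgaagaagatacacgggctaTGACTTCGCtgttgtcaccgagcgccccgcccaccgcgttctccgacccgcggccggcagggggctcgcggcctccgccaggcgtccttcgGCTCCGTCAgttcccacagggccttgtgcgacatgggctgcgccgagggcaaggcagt
Matches elsewhere, such as distal enhancers or other transcription starts of the same gene, were not searched. Counts per gene do not tell which start the TXNRD1 reads came from. Whether these matches lie at the start behind its rise in RBE was not tested.

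**Figure D4:**
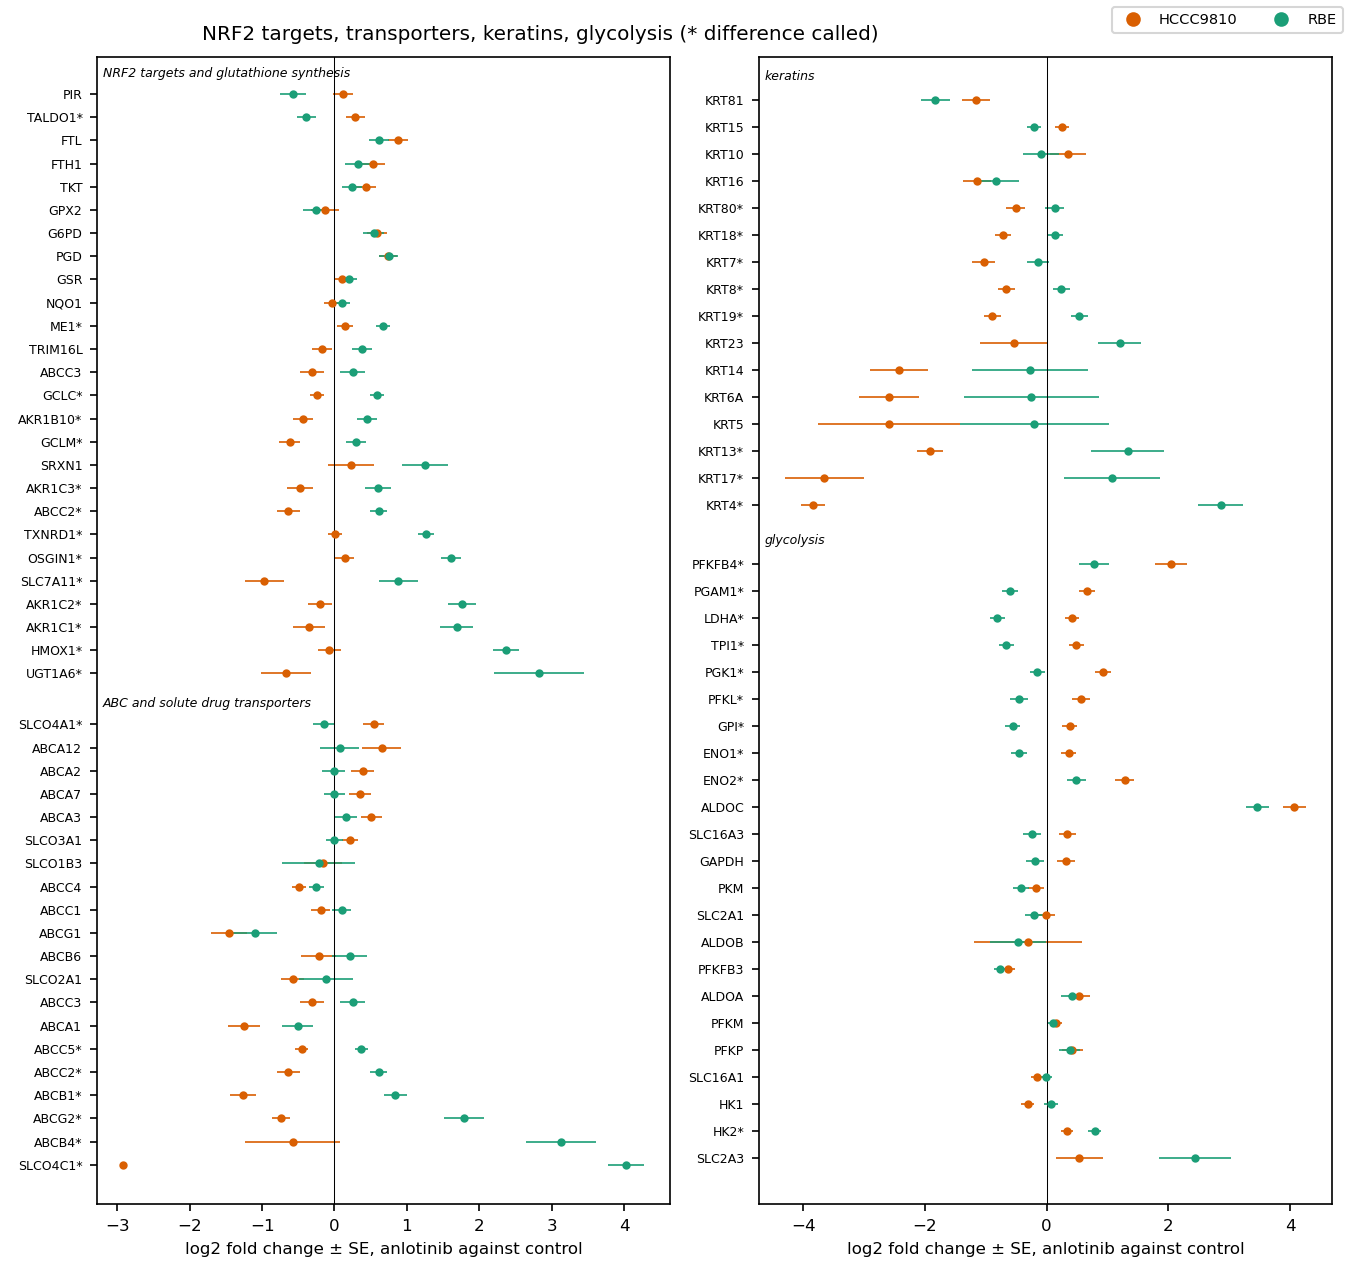
Log2 fold change with anlotinib in each line (point) with its standard error (bar) for NRF2 targets, ABC and SLCO transporters, keratins and glycolytic enzymes, an asterisk marking a called difference. RBE lies above HCCC9810 for starred members of the first 3 groups except TALDO1 and SLCO4A1, and below it for starred glycolytic enzymes except HK2.

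Efflux and uptake transporters included 4 opposite genes among 20 tested, with 6 higher and 1 lower in the difference (35.0%). The lower count was 4 with the GC and length correction and 3 without libraries 6 and 7, with 4 opposite in each. ABCB1, the multidrug efflux pump P-glycoprotein, was at 16.4, 13.2 and 11.4 CPM in HCCC9810 control and 5.02, 4.83 and 7.04 with anlotinib. It was at 25.3, 30.4 and 23.6 CPM in RBE control and 48.8, 50.7 and 42.5 with anlotinib. The groups were apart in both lines, with log2 fold changes of -1.27 ± 0.18 and 0.84 ± 0.16 and a difference of 2.12 ± 0.24 (adjusted p = 7.82e-05). ABCG2, another efflux pump, went from 74.8, 71.8 and 67.5 to 39.4, 47 and 41.8 CPM in HCCC9810 and from 0.179, 0.377 and 0.183 to 0.832, 0.875 and 0.651 CPM in RBE, where 18 and 79 counts lie behind the values. ABCC2, which exports conjugates into bile, changed by -0.64 ± 0.16 and 0.61 ± 0.12, its fall in HCCC9810 ending without library 8 or 10 (adjusted p = 0.0602 to 0.0801). Drug-metabolising enzymes gave 6 of 19 higher in RBE (31.6%; lower 0 by edgeR and DESeq2, 1 unadjusted), among them ALDH1A1, which oxidises retinal and fell in HCCC9810 only (-1.35 ± 0.19, against 0.56 ± 0.19, difference 1.92 ± 0.27, adjusted p = 0.000496).

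Keratins fell in HCCC9810 in 12 of 16 tested cases (median -1.08), while in RBE 3 rose and 1 fell (median 0.02), and the difference was higher in RBE for 8 (50.0%; lower 0 by edgeR and DESeq2, 1 unadjusted). It was higher for 8 and lower for 1 with the GC and length correction, and higher for 7 and lower for 3 without libraries 6 and 7. KRT19, the standard marker of bile duct cells, was at 4100, 3210 and 3190 CPM in HCCC9810 control and 2100, 1820 and 1760 with anlotinib. In RBE it was at 709, 616 and 786 CPM in control and 955, 934 and 1180 with anlotinib. The fall in HCCC9810 (-0.89 ± 0.14) was clear of the spread, and the rise in RBE (0.54 ± 0.14) ended without library 1, 2 or 6 (adjusted p = 0.053 to 0.0859), with a difference of 1.42 ± 0.20 (adjusted p = 0.000405). KRT18, its simple-epithelial companion, fell in HCCC9810 (-0.71 ± 0.13, 16.3% of its exons shared), with 0.14 ± 0.13 in RBE. Of the cholangiocyte markers tested, 3 of 10 were higher in the difference, against 8.92% of all tested genes. Other marker lists moved too: 3 of 5 endothelial and 1 of 8 fibroblast markers were higher, and 1 of 8 hepatocyte markers was lower. Of the biliary transcription factors, 5 of 20 were higher in RBE (25.0%, 3 without library 4, 5 or 8 and 8 without libraries 6 and 7), with the liver factor ONECUT2 at -0.93 ± 0.17 in HCCC9810 and 0.69 ± 0.16 in RBE.

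TGF-beta targets and feedback genes fell in HCCC9810 in 17 of 24 tested cases (median -0.69), and in RBE 6 fell and 3 rose (median -0.23). The difference was higher in RBE for 11 and lower for 2 (54.2%, and 8 in all without library 1, 4, 5 or 8). Among collagens, 10 of 22 fell in HCCC9810, and the difference was higher for 5 and lower for 2 (31.8%). COL4A1, a chain of basement membranes, fell in HCCC9810 only, from 253, 225 and 206 to 105, 80.7 and 85.9 CPM, and was at 63.8, 52.3 and 68 CPM in RBE control and 63.3, 68.8 and 55.7 with anlotinib. COL12A1, a fibril-associated collagen, was opposite, at -0.94 ± 0.14 in HCCC9810 and 0.97 ± 0.14 in RBE (difference 1.91 ± 0.19, adjusted p = 3.35e-05). The hemidesmosomal collagen COL17A1 went the other way round, falling in RBE only (-1.32 ± 0.16, against 0.24 ± 0.14).

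Proteases and their inhibitors gave 8 of 21 higher and 2 lower (47.6%). PLAT, tissue plasminogen activator, fell in HCCC9810 only (-0.95 ± 0.12, against 0.35 ± 0.12 in RBE). The mesenchymal list had 6 of 18 higher and 2 lower (44.4%), and 3 to 5 in all without library 1, 2, 3, 4, 5, 7, 8, 9, 10 or 12. SNAI2, a repressor of epithelial genes, rose in RBE only (1.35 ± 0.20, against 0.19 ± 0.15, difference 1.16 ± 0.25, adjusted p = 0.0067). YAP targets gave 6 of 21 higher and 2 lower (38.1%), led by ANKRD1, a muscle-type ankyrin repeat protein, which was at 122, 76.3 and 55.4 CPM in HCCC9810 control, 91.9, 116 and 67.7 with anlotinib, 28.4, 35.5 and 30.7 in RBE control and 170, 171 and 143 with anlotinib. Its groups overlapped in HCCC9810 and were apart in RBE (difference 2.24 ± 0.36, adjusted p = 0.00211).

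Among tubulins and microtubule-associated proteins, 5 of 19 were higher and 5 lower in the difference (52.6%, and 6 in all without library 4, 5 or 8). MAP1B, a stabiliser of neuronal microtubules, was at 15.9, 19.8 and 19.3 CPM in HCCC9810 control and 2.48, 3.1 and 2.49 with anlotinib, and at 319, 308 and 297 CPM in RBE control and 525, 569 and 434 with anlotinib. It fell in the line where it was low and rose in the line where it was high (difference 3.48 ± 0.20, adjusted p = 2.6e-07). STMN1, which destabilises microtubules, and TUBB4B, a beta-tubulin, fell in RBE only (-0.84 ± 0.14 and -1.22 ± 0.19), the latter in a family whose members share sequence.

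Output and feedback genes of ERK signalling rose in HCCC9810 in 13 of 23 cases, and in RBE 7 rose and 2 fell, with 7 lower and 3 higher in the difference (43.5%). ETV5, an ETS factor induced by FGF and ERK signalling, was at 57.6, 57.9 and 58.3 CPM in HCCC9810 control and 99.8, 96 and 104 with anlotinib, and at 94.3, 93.7 and 110 CPM in RBE control and 63.6, 65.9 and 76.2 with anlotinib. The groups were apart in opposite orders (difference -1.32 ± 0.15, adjusted p = 6.75e-05). FOSL1, an AP-1 subunit, rose in HCCC9810 (1.19 ± 0.15), with -0.31 ± 0.15 in RBE, and ETV4, the relative of ETV5, rose in HCCC9810 only (1.11 ± 0.14, against -0.01 ± 0.14). The ERK count was 4 to 6 without library 1, 4, 5, 8, 9 or 10. Of 24 AP-1 and immediate early genes, 18 rose in HCCC9810 and 14 in RBE, with 6 lower and 3 higher in the difference (37.5%). EGR1, a zinc finger factor of the early response, rose more in HCCC9810 (2.20 ± 0.16 and 1.23 ± 0.15), and the orphan receptor NR4A1 rose more in RBE (1.32 ± 0.25 and 3.02 ± 0.21, 10.3% of its exons shared).

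Cytokine and inflammatory lists moved in both senses. Interleukins and colony factors gave 3 higher and 3 lower of 19 (31.6%, and 3 in all without library 1, 3, 4, 5, 8, 9 or 10). IL1B, an inflammatory cytokine, rose in HCCC9810 (1.80 ± 0.15), with 0.52 ± 0.26 in RBE, and CSF1, the macrophage growth factor, rose in RBE only (1.47 ± 0.13, against 0.36 ± 0.13 in HCCC9810). NF-kB subunits and feedback genes were lower in the difference for 5 of 20 and higher for 1 (30.0%, 2 or 3 in all without library 3, 4, 5, 8, 9 or 10, 11 with the GC and length correction and 10 without libraries 6 and 7), with TNIP1, a brake on that pathway, at 1.20 ± 0.13 and 0.26 ± 0.13. Interferon-stimulated genes fell in HCCC9810 in 12 of 37 cases and rose in 4, and were higher in the difference in 9 and lower in 1 (27.0%, and 4 to 6 in all without library 3, 4, 5, 8 or 9). In RBE 4 rose and 2 fell (median 0.03, against -0.26 in HCCC9810). Of the list, 6 genes responded in HCCC9810 only and 4 in RBE only. TRIM22, an antiviral ring finger protein, rose in RBE (1.24 ± 0.22), with -0.40 ± 0.20 in HCCC9810 and 10.7% of its exons shared.

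Among receptors that anlotinib is known to inhibit, 2 of the 9 tested were called in the difference, 1 in each direction, near the background share of 16.6%. FGFR2, a receptor for fibroblast growth factors, was at 13.6, 14 and 14.2 CPM in HCCC9810 control and 16.3, 10.6 and 14.7 with anlotinib, and at 1.65, 2.43 and 1.68 CPM in RBE control and 3.85, 4.68 and 4.66 with anlotinib. It rose in RBE only, towards but not to the level of HCCC9810 (difference 1.23 ± 0.27, adjusted p = 0.00706). FGFR4 was just past the threshold (difference -0.59 ± 0.19, adjusted p = 0.0495), and its call ended without any 1 library except 2, 6 and 7 (adjusted p = 0.0533 to 0.167). INSR, the insulin receptor, was opposite among other growth factor receptors, falling from 38, 32.1 and 32.1 to 23.6, 21.3 and 26.6 CPM in HCCC9810 and rising from 15, 12.7 and 15.8 to 22.7, 23.5 and 22.4 CPM in RBE. Its groups did not overlap in either line (difference 1.17 ± 0.18, adjusted p = 0.000701), and 3 of the 27 receptors in that list were higher and 4 lower (25.9%, and 6 and 7 without libraries 6 and 7).

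Lists of developmental signalling lay above the background share of 16.6%, which the rule for describing a list required. That they lay above it therefore follows from the selection. WNT targets and feedback genes gave 2 higher and 2 lower of 15 (26.7%), among them AXIN2, a feedback inhibitor, which fell in HCCC9810 only (-1.83 ± 0.21, against 0.05 ± 0.24, 25.2% of its exons shared). Notch gave 1 higher and 3 lower of 16 (25.0%, and 2 without library 3 or 5), with NOTCH1 rising in HCCC9810 only (0.82 ± 0.12, against -0.12 ± 0.12). Ephrins and semaphorins gave 7 higher and 1 lower of 27 (29.6%, and 5 without library 1 or 12). Without libraries 6 and 7, 6 of them were higher and 7 lower. Amino acid transporters gave 4 higher of 15 (26.7%).

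Lipid synthesis genes rose in both lines. Cholesterol genes rose in 25 of 26 cases in HCCC9810 (median log2 fold change 2.06) and 24 in RBE (median 2.05), and fatty acid genes rose in 14 and 15 of 22. Their responses still differed between the lines, with 4 higher and 5 lower among cholesterol genes (34.6%) and 5 higher and 2 lower among fatty acid genes (31.8%). Without libraries 6 and 7 these became 6 and 14, and 6 and 5, and with the GC and length correction 4 and 8 in both lists. SCD, the stearoyl-CoA desaturase, was at 195, 194 and 202 CPM in HCCC9810 control and 1860, 1690 and 1860 with anlotinib, and at 657, 565 and 691 CPM in RBE control and 2450, 2580 and 2620 with anlotinib. It rose more in HCCC9810 (difference -1.20 ± 0.15, adjusted p = 0.000154). ACSS2, which makes acetyl-CoA from acetate, rose more in RBE, from 45.8, 46.8 and 48.4 to 309, 307 and 391 CPM, than in HCCC9810, from 70.3, 62.3 and 60.4 to 183, 234 and 238 CPM (difference 1.07 ± 0.18, adjusted p = 0.00138). SREBF1, the transcription factor of fatty acid synthesis, rose in HCCC9810 only, from 177, 213 and 246 to 501, 313 and 501 CPM, and was at 235, 201 and 247 CPM in RBE control and 174, 169 and 205 with anlotinib (difference -1.37 ± 0.24, adjusted p = 0.00228). The cholesterol count was 5 without library 1, 4 or 9 and 14 without library 6.

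**Figure D5:**
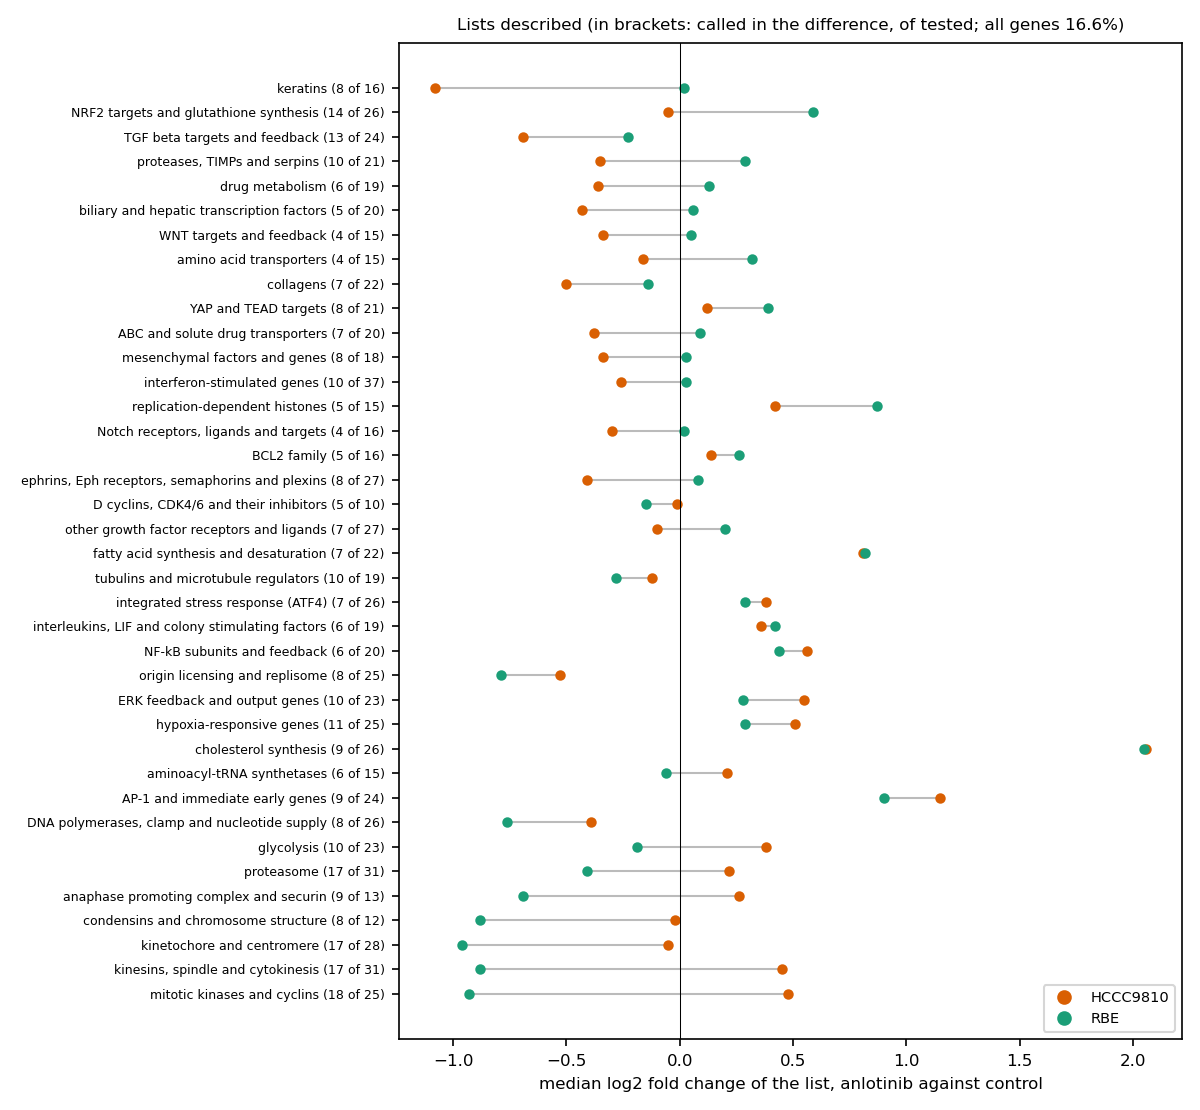
Median log2 fold change with anlotinib in each line for the 38 gene lists described, with the number of members called in the difference and tested in brackets. Mitosis lists have RBE medians between -0.69 and -0.96, and both cholesterol medians lie near 2.

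The genes with the largest responses in 1 line lay mostly outside these lists. In RBE only, HRNR, a cornified envelope protein, rose from 1.9, 1.89 and 1.92 to 14.3, 14.9 and 21.9 CPM, and in HCCC9810 it was at 8.47, 4.83 and 5.59 CPM in control and 6.58, 7.94 and 8.39 with anlotinib. In HCCC9810 only, TENM2, a cell adhesion protein, fell from 11, 8.86 and 8.27 to 2.05, 1.61 and 1.56 CPM, and in RBE it was at 3.87, 3.24 and 2.96 CPM in control and 4.25, 3.83 and 4.83 with anlotinib. The differences were 2.86 ± 0.32 and 2.77 ± 0.27 (adjusted p = 6.62e-05 and 2.59e-05). In each gene the groups of the line that responded were apart, as required for naming. Placental PSG5, of a family with near-identical members, and the chaperone CRYAB rose in RBE only (3.54 ± 0.30 and 2.27 ± 0.22), with 11.1% and 20.6% of their exons shared. ATP10A, a phospholipid flippase, fell in HCCC9810 only (-3.07 ± 0.41, from 88 to 8 counts). HS6ST2 and CLDN10 were picked by the same rule but had 9 and 8 counts in HCCC9810 control and 0 with anlotinib, too few to describe a response.

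Of 61 lists, 23 fell short of the share or number of called members set for a description. Cytoplasmic ribosomal proteins (48 tested) and mitochondrially encoded transcripts (13 tested) had 0 called in the difference by edgeR and by DESeq2, with 3 and 5 lower at an unadjusted p below 0.05. Of oxidative phosphorylation genes 6 of 37 were lower, and of p53 targets 5 of 30 were higher and 1 lower. Over all tested genes 16.6% were called in the difference, 8.92% higher and 7.66% lower. Whether either list departs from these shares was not tested. Of the 225 genes named by rule, 135 kept a called difference in every one of 21 alternatives and 164 in each fit with 1 library left out.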

How the data were processed

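RNA-seq libraries of the HCCC9810 and RBE lines were analysed, 3 per group in 4 groups. Total RNA was extracted with a silica column kit and sequenced in paired ends, per the labels' protocols. The authors deposited read counts per gene and RPKM values for 58216 genes in separate tables, per the file headers. The submitters' processing notes name HISAT2 and GRCh38 without versions. The counting program, its annotation and its use of strand and of reads with several matches are, in the sources used here, not stated. The deposited RPKM equals counts per gene length and library total within 0.1%, and all 58216 gene IDs were found in GENCODE 29, from which positions, exon overlap and GC content were taken.

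Counts were fitted with edgeR 4.0.16 (R 4.3.3; TMM scaling, filterByExpr, robust quasi-likelihood fit of 4 group means over 12 libraries), and 18035 genes were tested. P-values were two-sided and Benjamini-Hochberg adjusted over all tested genes, with a threshold of 0.05. They measure the spread between 3 libraries per group. Standard errors are the unshrunken log2 fold change over the root of the F statistic. Levels are CPM (counts per 1000000) of the TMM-scaled library. On simulated counts for 17741 genes the test recovered 4%, 44%, 92% and 100% of differences of 1.5-, 2-, 4- and 8-fold, and 4.76% of 126 calls were false. The simulated counts were drawn independently per gene, without the shared axis that followed GC content. Differences were placed only in genes above a low level in both lines, so these rates may not hold for the real libraries.

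Genes were named by rule: the 8 opposite genes per direction with the largest smaller response, the 5 strongest per line and direction among genes responding in 1 line only, 3 per direction among genes changing the same way, up to 4 per direction from each list described, the called receptors that anlotinib inhibits, CDKN1A and MKI67. Those by response needed 5 CPM in the highest group and ranges that did not overlap. Of 61 lists, 38 are described: those with at least 4 called members at 1.5 times the background share, or at least 3 opposite members. The comparison, lists and rules were chosen with earlier results of these data known. Alternatives were other scalings, DESeq2 1.42.0, limma 3.58.1 on log2 of the deposited RPKM plus 1 or 0.1, other filters, a GC and length correction, each line alone, and libraries left out. Exon overlap of 10% or more is given beside a gene. Tables were made with Python 3.11.15, pandas 2.3.3 and scipy 1.17.1. Some items are not reported here.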

Additional observations from a re-analysis of the deposited data

Results flagged for a closer look

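The count of 2990 genes with a difference between the lines, and the 352 genes called in opposite directions, are listed here because the difference itself was tested and the lines disagreed. The same holds for the 16 named opposite genes, each called in the difference and in both lines by edgeR. On the log2 scale, as RBE minus HCCC9810, the difference was 6.70 for KRT4, 3.57 for GCNT4, 3.16 for FAM198B and 4.77 for CFAP65. It was 3.15 for SLAMF7, 2.61 for NCALD, 3.30 for EDN2 and 2.29 for FBN1. In the other direction it was -3.32 for PIF1, -2.89 for KIF20A, -4.23 for CA9 and -2.57 for CENPA. It was -2.17 for GTSE1, -2.07 for CDCA8, -2.46 for PLK1 and -2.07 for KIF4A. Of these, CFAP65 in RBE rests on 1 control count and 18 anlotinib counts, and CA9 in RBE on levels under 1 CPM.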

How the results depend on the processing

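No paired analysis was possible because no replicate number in the headers is shared between groups. The 2990 differences, 352 opposite, 1240 HCCC9810-only and 765 RBE-only genes became 4565, 633, 1751 and 1337 with the GC and length correction, and 6413, 1154, 2676 and 1327 without libraries 6 and 7. With limma on log2(RPKM + 0.1) and no filter they became 1636, 167, 623 and 499, and with log2(RPKM + 1) the RBE-only count was 1215. With 1 library left out they ran from 1473 to 4865, 184 to 614, 563 to 1881 and 346 to 1195, in each case highest without library 6. Counts under the other scalings, filters and DESeq2 stayed within 1.5 times, and the cause of the larger shifts was not tested. The differences of 135 of 225 named genes were called in every one of 21 alternatives, and of 4723 values 4205 kept sign and call, 514 kept sign only and 4 changed sign. Those were RPS6KL1 (0.27 with log2(RPKM + 1) and 0.05 with log2(RPKM + 0.1)), CLDN10 (-0.26) and CEACAM6 (0.08, both with log2(RPKM + 1)). At 1.5-fold the simulated recovery was 4%, so a gene without a called difference is not shown to respond alike in both lines.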
